A study of Mus musculus with 6 samples.

Results

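The genes described here are the cytosolic ribosomal protein genes of the mouse retina. They were chosen by symbol: every protein-coding gene of the count table whose mouse symbol is Rpl, Rps or Rplp followed by a digit, leaving out the pseudogene names and the Rps6k kinases. The rule found 85 of 52636 genes, 52 named Rpl or Rplp (large subunit) and 33 named Rps (small subunit). Droplet libraries of single cells (10x Genomics, 3′ end) gave unique molecular identifier (UMI) counts for 6 retinas of male C57BL/6J mice aged 12 months, digested with papain. Of these, 3 were Dram2 wt/wt and 3 were Dram2 ko/ko, which carry a constitutive CRISPR deletion of exon 4 of Dram2 in every cell of the body and not in 1 retinal cell type. Batch 1 held replicate 3 of both genotypes, and batch 2 held the remaining 2 replicates of both. The study's own 5 cell types hold 45746 of the 46375 cells: photoreceptors (42359 cells), interneurons (2083), glia (942), mesenchymal cells (246) and RPE cells (116), where RPE is the retinal pigment epithelium.

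A ribosome joins a small subunit, which reads the mRNA, to a large subunit, which forms the peptide bond. Each cytosolic ribosomal protein is encoded by a single nuclear gene in most cases, with a few duplicated genes whose second copy is used in particular tissues such as testis or muscle. The mRNAs of these genes typically begin with a 5′ terminal oligopyrimidine tract (5′ TOP), a C followed by a run of C and T, through which cells adjust their translation together. The same mRNAs have been copied back into the genome many times by reverse transcription, which leaves intronless processed pseudogenes that can be nearly identical to their parent. A sequence read that matches parent and copy equally well cannot be assigned to either.

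Depth per retina was 3463728 to 6563762 UMIs. Within each cell type both retinas of batch 1 lay above all those of batch 2 in the share of mitochondrial UMIs. Taken over all cell types the ranges overlapped, at 1.18% to 3.74% of UMIs in batch 1 and 0.147% to 1.28% in batch 2. The deposited cell types held their own markers: the summed level of the 7 photoreceptor markers was 44750 to 70630 CPM (UMIs scaled to a common total per sum) in photoreceptors and 4455 to 10453 in the other 4 types, and of the 9 RPE markers only Best1 was at 0 in RPE cells. The 7 glial markers summed to 40002 to 51747 CPM in glia, 252 to 930 in photoreceptors and interneurons, 12011 to 15971 in RPE cells, where only Slc1a3 was at 0, and 2177 to 12107 in mesenchymal cells, where they were highest in ko/ko replicates 1 and 2. The 12 mesenchymal markers summed to 19783, 20160 and 20480 CPM in the mesenchymal cells of wt/wt replicates 1, 2 and 3 and to 14873, 16561 and 13303 in those of ko/ko, without overlap, and the 9 interneuron markers to 655 CPM in those of ko/ko replicate 3 and 25.6 to 184 in those of the other retinas. Their part in the genotype differences of mesenchymal cells was not tested. The part of glial RNA in the values of RPE and mesenchymal cells was not tested. Dram2 stood at 28.1, 35.2 and 56.6 CPM over all typed cells of wt/wt replicates 1, 2 and 3 and at 27.4, 33.9 and 53.6 over those of ko/ko, but the deleted exon lies outside the counted 3′ end, so these values do not check the genotype. Cells carry running numbers in place of 10x barcodes, so barcodes shared between libraries were not counted.

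The 85 genes held 435607 UMIs, 1.56% of all 28002465. Processed pseudogenes that align best to them held slightly more. By alignment, 1394 processed pseudogenes with UMIs and with at least 80% identity over at least 50% of their length were assigned to a ribosomal protein gene, and they held 446431 UMIs, which is 50.6% of the UMIs on the genes and their pseudogenes together. These copies took 43.5% of the UMIs on all processed pseudogenes of the table. Large-subunit and small-subunit genes were alike in this: 51.2% of the UMIs of Rpl genes and their copies, and 49.9% of those of Rps genes and theirs, lay on pseudogenes. By symbol alone (parent symbol followed by ps) there were 274 processed pseudogenes with 122648 UMIs, 255 of them with any UMI, and of these 236 were assigned to the same gene by alignment.

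The UMIs lay mostly on the closest copies. The 231 pseudogenes of at least 98% identity to their parent held 52.4% of the assigned pseudogene UMIs, with a median of 226 UMIs each, and the 445 of below 90% identity held 8.75%, with a median of 34. The 27 pseudogenes identical over their whole aligned length held 40158 UMIs. Only pseudogenes with UMIs were aligned, so copies without any enter none of these counts and medians. The length beyond the aligned part, where a parent and a copy can differ, was not compared.

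The letters below show how little separates a gene from its most counted copy. Each line is a window of 30 bases of coding sequence on the gene's strand, in GRCm38, the one nearest the 3′ end that holds a difference, with the differing bases in capitals.
Rps28, chr17:33823238-33823267, minus strand, exon 3 of 4: cGagagggtgacgtgctcaccctattggag
Gm3511, its copy, chr5:113767273-113767302, plus strand: cAagagggtgacgtgctcaccctattggag
Rpl37, chr15:5118590-5118619, plus strand, exon 4 of 4: cGccgaaacccaagagggcagctgtcgcag
Rpl37rt, its copy, chr5:115103245-115103274, minus strand: cAccgaaacccaagagggcagctgtcgcag
Rpl38, chr11:114671827-114671856, plus strand, exon 4 of 5: cagagaagCtgaagcagtccctacccccgg
Rpl38-ps1, its copy, chr4:138425947-138425976, plus strand: cagagaagTtgaagcagtccctacccccgg
Rpl14, chr9:120574308-120574337, plus strand, exon 6 of 6: gCAgcacctcctgctaaaggtcagaagggt
Rpl14-ps1, its copy, chr7:45325529-45325558, plus strand: gTGgcacctcctgctaaaggtcagaagggt

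Rps28, a small-subunit protein, had the largest share of its joint UMIs counted on copies among the 82 genes with an assigned copy: it held 1680 UMIs itself, Gm3511 held 15962, and its 13 copies together took 92.1% of the joint total. Gm3511 differs from the Rps28 transcript at 2 of 204 aligned bases. Rpl37, a large-subunit protein, differs from Rpl37rt at 1 of 344 aligned bases, and the gene held 7652 UMIs against 13747 on Rpl37rt. Rpl38 and Rpl38-ps1 held almost equal numbers, 8249 and 8269. Rpl14 kept 19346 UMIs against 9500 on Rpl14-ps1, and the copy has 4 mismatches and 3 gap bases over 656 aligned bases. Gm14303, identical to Rps29 over 171 bases, held 3143 UMIs beside 3499 on Rps29 itself.

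Taken gene by gene, 55 of 85 held fewer UMIs than their copies, and the median gene had 63.7% of its joint UMIs on copies. The 10 genes at 80% or more were Rps28, Rps6, Rpl21, Rpl17, Rpl23a, Rpl27, Rps7, Rps27a, Rpl7a and Rps23. Rps6, the small-subunit protein phosphorylated by S6 kinase, held 504 UMIs and its copies 3880, or 88.5%. At the other end, 9 genes had 10% or less, among them Rps3, Rpl8, Rpl13a, Rplp1 and Rpl7l1 with few copies or few UMIs on them, and Rpl3l, Rps19bp1 and Rps27rt with no assigned copy. The deposited counts are described as those of uniquely mapped reads, so levels of single genes below are read as levels of the UMIs that could be told apart from the copies, which could not be checked without the reads. The 3′ kit counts 1 tag per molecule whatever the length, so levels are not divided by length, but they are not comparable between genes with few and many copies.

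**Figure D1:**
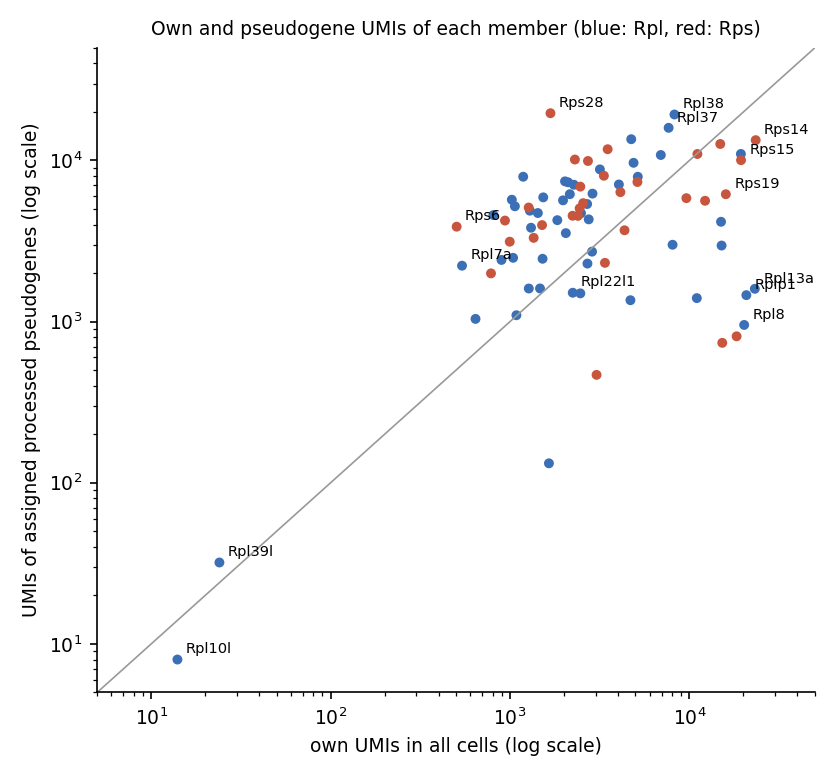
Each point is one of the 82 ribosomal protein genes with an assigned copy, with its own UMIs in all cells on the x axis and the UMIs of its processed pseudogenes on the y axis (both log scales; blue Rpl, red Rps). The line marks equal numbers; 55 of the 85 genes had fewer own UMIs than pseudogene UMIs, with Rps28 (1680 own, 19622 on copies) far above the line.

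The genes with the most UMIs were Rps14 (23392), Rpl13a (23137), Rplp1 (20751), Rpl8 (20176) and Rps15 (19381), and these 5 held 24.5% of all UMIs on the 85 genes. The median gene held 2465, and 74 genes held at least 1000. The fewest UMIs lay on Rpl3l (8), Rpl10l (14) and Rpl39l (24), paralogs known from muscle or testis, followed by Rps6 (504) and Rpl7a (540). Rpl3l, Rpl10l and Rpl39l were at or near 0 in every cell type, with at most 4 UMIs of any of them in any retina and type, whereas Rps6 and Rpl7a had 88.5% and 80.4% of their joint UMIs on copies. Rps19bp1 (3100 UMIs) is a member by its symbol only, since it encodes a protein that binds Rps19.

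The promoters of the family were searched for the letters of the 5′ TOP. The motif searched was a C at the annotated start followed by at least 4 bases that are C or T, on the gene's strand only. In the RefSeq promoters (GRCm38.p6), 65 members had 77 start sites, and 14 of these (18.2%) held the motif at the start, against 823 of 32851 promoters of all genes (2.51%) and 0 of 75 promoters of mitochondrial ribosomal protein genes. Allowing the C to lie within 5 bases of the annotated start gave 32 of 77 (41.6%), 6027 of 32851 (18.3%) and 17 of 75 (22.7%). Letters are shown for 5 of the 14, chosen for genes described below; 5 bases before the start and 25 from it, with the pyrimidine run in capitals.
Rpl15, chr14:18270962-18270991, minus strand: gccttCTTCCTTTCCTCTggcggcagccat
Rps27, chr3:90213624-90213653, minus strand: tcgctCCTTTCCggcggtgacgacctccct
Rps18, chr17:33955641-33955670, minus strand: ccgctCTCTCTTCCacaggaggcctacacg
Rplp2, chr7:141447646-141447675, plus strand: tcttcCTTTCgccgccggacgccgccgagg
Rpl38, chr11:114668575-114668604, plus strand: tcgttCTTTCCCCgttctcttcggttctca

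Of UMIs summed over cells, mesenchymal cells gave the largest share to ribosomal protein genes, and glia the smallest, in each of the 6 retinas. In mesenchymal cells, the type that holds the vascular and microglial markers, the share was 3.78%, 3.25% and 3.88% in wt/wt replicates 1, 2 and 3 and 4.27%, 3.26% and 2.83% in ko/ko replicates 1, 2 and 3. In photoreceptors it was 1.06%, 1.11% and 1.83%, and 1.81%, 1.34% and 1.57%. In glia it was 1.00%, 0.902% and 1.45%, and 1.45%, 0.971% and 1.26%. No retina's mesenchymal share overlapped any photoreceptor or glial share, and within a retina it was 1.80 to 3.55 times that of its photoreceptors. Interneurons lay at 1.67% to 2.29% and RPE cells at 1.55% to 1.84%. Glia were lowest for summed UMIs and not per cell. The median photoreceptor gave 0.755%, 0.753% and 1.21% in wt/wt replicates 1, 2 and 3 and 1.25%, 0.873% and 1.00% in ko/ko. The median glial cell lay above it in each retina, at 0.932%, 0.813% and 1.40%, and 1.34%, 0.913% and 1.19%.

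As means over the 6 retinas, the shares were 3.54% ± 0.524 in mesenchymal cells, 1.87% ± 0.249 in interneurons, 1.71% ± 0.0968 in RPE cells, 1.45% ± 0.336 in photoreceptors and 1.17% ± 0.248 in glia (SD, n = 6). Interneurons and RPE cells do not differ beyond their spread, nor do RPE cells and photoreceptors or photoreceptors and glia as pooled values. The median photoreceptor held 397 to 523 UMIs and the median cell of the other types 662 to 2380. RPE cells gave only 300 to 556 ribosomal protein UMIs per retina and mesenchymal cells 2200 to 3723, so single genes are least precise there. The share of UMIs cannot tell more ribosomal protein mRNA per cell from less of all other mRNA.

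**Figure D2:**
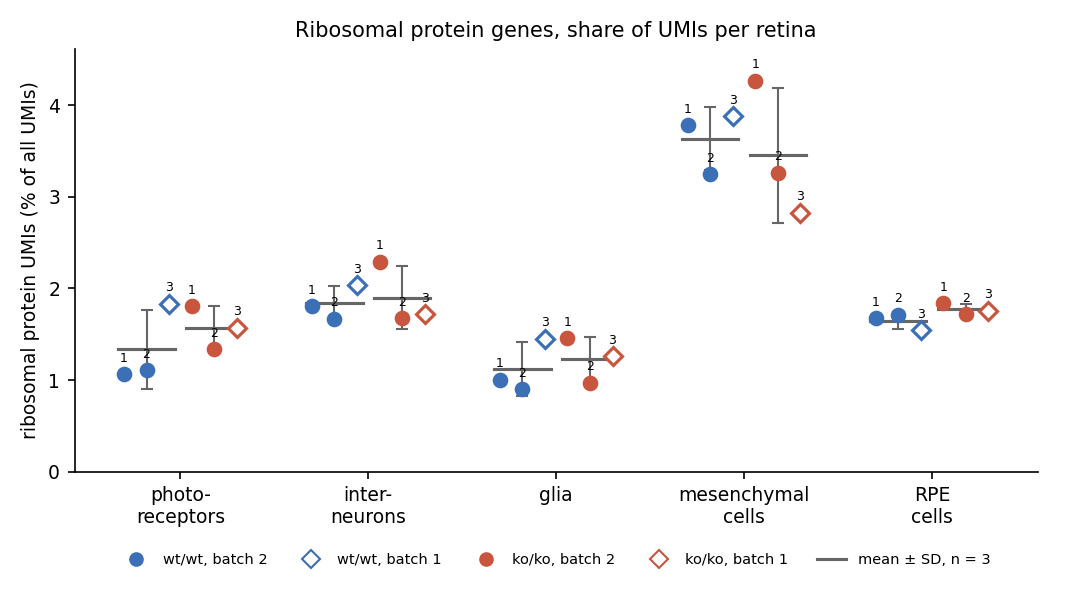
The percent of UMIs on the 85 ribosomal protein genes is plotted on the y axis for each of the 5 cell types, one symbol per retina (colour for genotype, open diamonds for batch 1, filled circles for batch 2), with grey bars for the mean and SD of each genotype (n = 3). Mesenchymal cells lie between 2.83% and 4.27%, above every value of the other types.

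Gene by gene, the wt/wt sums of the 5 types were compared with edgeR (quasi-likelihood, retina as a block, Benjamini-Hochberg adjusted p under 0.05 over all genes tested). Because the types were themselves clustered from this table, the tests describe the clusters and are no independent evidence. Of 81 ribosomal protein genes tested, 71 differed among types (87.7%), where 83.5% of all genes tested did. The 10 that did not pass were Rpl21, Rpl31, Rpl36, Rps2, Rps6, Rps7, Rps12, Rps25, Rps27a and Rps29. The share of members that differed was near that of all genes.

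The differences ran mostly one way in mesenchymal cells. Against photoreceptors, 65 of 81 members were higher and 1 lower in mesenchymal cells (24.8% and 25.5% of all genes tested were higher and lower), and the median member differed by 1.11 on the log2 scale where the median gene differed by -0.21. Both subunits took part: 41 of 48 Rpl genes and 24 of 33 Rps genes were higher. In interneurons 16 were higher and 4 lower (background 25.7% and 26.2%; median 0.16 against -0.03 for all genes), in glia 1 higher and 24 lower (26.8% and 29.4%; median -0.37 against -0.14), and in RPE cells 3 higher and 9 lower (9.79% and 24%; median -0.03 against -1.17). Photoreceptor markers summed to 4455 to 10453 CPM in the other types, and the part of photoreceptor RNA in these differences was not tested. Single retinas moved these counts: in mesenchymal cells 41 members were higher and 0 lower without wt/wt replicate 1, in interneurons 6 and 3, 5 and 3, and 26 and 5 without wt/wt replicates 1, 2 and 3, in glia 1 and 14 without wt/wt replicate 3, and in RPE cells 0 and 7, 0 and 8, and 6 and 2 without wt/wt replicates 1, 2 and 3, so the direction in RPE cells rests on wt/wt replicate 3. Without the filter on low counts, 37 were higher and 2 lower in mesenchymal cells.

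Of the stalk proteins, which recruit translation factors to the large subunit, Rplp0 was among the genes furthest up in mesenchymal cells. Rplp1 and Rplp2 were higher there too, by less. Rplp0 stood at 37.6, 33.7 and 54.8 CPM in the photoreceptors of wt/wt replicates 1, 2 and 3 and at 270, 171 and 254 in their mesenchymal cells, with no overlap. Its log2 difference was 2.23 ± 0.27 (SE; edgeR adjusted p = 2.2e-15). Rplp1 stood at 391, 410 and 1103 CPM in photoreceptors and 1841, 1451 and 2062 in mesenchymal cells (1.41 ± 0.19, adjusted p = 2.2e-13), without overlap, and in photoreceptors wt/wt replicate 3 stood far above the other wt/wt retinas. Rplp2 stood at 115, 127 and 205 against 417, 352 and 573 CPM (1.38 ± 0.21, adjusted p = 1.7e-10). In glia, Rplp1 and Rplp2 were lower than in photoreceptors by 0.48 and 0.70 on the log2 scale (adjusted p = 0.0195 and 0.00226), and Rplp0 stood at 53.5, 60.2 and 77.2 CPM.

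Other large-subunit genes were also far higher in mesenchymal cells. Rpl10, near the peptidyl transferase centre, stood at 29.5, 23.4 and 38.6 CPM in photoreceptors and 172, 181 and 143 in mesenchymal cells (2.22 ± 0.32). Rpl13 went from 60.6, 64.1 and 60.4 to 368, 320 and 221 CPM (2.05 ± 0.24). Among small-subunit genes, Rps9 stood at 270, 272 and 462 against 1583, 1249 and 1919 CPM (2.04 ± 0.18), and Rps4x, the X-linked copy of Rps4, at 52.5, 52.2 and 97.5 against 319, 288 and 287 (1.94 ± 0.24). In none of these 4 genes did the types overlap in any retina. The single gene lower in mesenchymal cells was Rps19bp1, the member that is no ribosomal protein, at 116, 120 and 93.3 CPM against 73.6, 64.0 and 66.2 (-0.91 ± 0.35, adjusted p = 0.0192).

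Interneurons differed from photoreceptors by single genes in both directions. Rpl15 was higher by 0.99 ± 0.26 on the log2 scale (12.95, 15.2 and 36.9 CPM in photoreceptors, 42.7, 40.9 and 78.2 in interneurons), Rps4x by 0.80 ± 0.17 and Rpl3, which lines the peptidyl transferase centre, by 0.78 ± 0.16. Rpl10a, at 193, 188 and 208 CPM in photoreceptors, stood at 121, 106 and 128 in interneurons (-1.06 ± 0.17). Rpl22 stood at 220, 221 and 382 CPM in photoreceptors and 138, 159 and 206 in interneurons (-1.02 ± 0.17), with every interneuron value under every photoreceptor value. Rps27l, a paralog of Rps27 known as a p53 target, stood at 100.1, 96.0 and 101 against 66.4, 48.1 and 77.5 (-0.89 ± 0.19).

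In glia 15 of 81 members had positive log2 differences from photoreceptors, and Rps27l alone passed the test upwards, at 168, 134 and 210 CPM (0.65 ± 0.19, adjusted p = 0.00162). Among the members furthest below were Rpl17 (-1.37 ± 0.46) and Rpl23a (-1.16 ± 0.41). Rpl17 and Rpl23a have 85.0% and 84.8% of their joint UMIs on copies and stood at 3.82 to 17.7 and 13.4 to 19.1 CPM in glia, a range of few UMIs. In RPE cells Rps15a (1.15 ± 0.40), Rps9 (0.72 ± 0.26) and Rpl41 (0.68 ± 0.24) were higher, and Rpl10a was lower (-1.95 ± 0.50). Rpl30 and Rps2 had 0 UMIs among the 89296 of the wt/wt RPE cells, where 3 counts over the group come to 33.6 CPM. Rpl30 stood at 35.6, 32.2 and 89.7 CPM in the photoreceptors of wt/wt replicates 1, 2 and 3, near that limit in all but replicate 3, and Rps2 stood at 38.9, 30.4 and 28.8 CPM there, likewise near the limit of the RPE cells, so no fold is given for either.

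**Figure D3:**
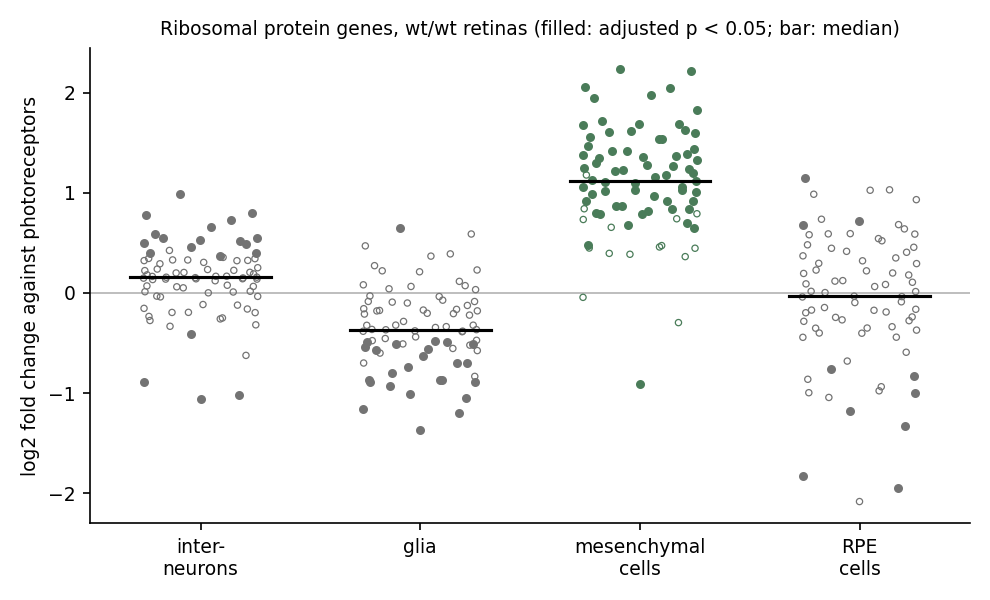
The y axis gives the log2 fold change of each ribosomal protein gene against photoreceptors in the wt/wt retinas for the other 4 cell types, one point per gene (filled where the adjusted p is under 0.05), with a black line at the median of the 81 genes. Mesenchymal cells have 65 genes higher and a median of 1.11, and 2 genes with 0 UMIs in RPE cells lie below the axis.

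The processed pseudogenes were counted in the same fit, without a test of likeness to the genes. Of 163 tested, 125 were higher and 1 lower in mesenchymal cells, with a median log2 difference of 1.34, where 24.8% and 25.5% of all genes were. In interneurons 26 were higher and 9 lower (25.7% and 26.2% of all genes), in glia 3 and 27 (26.8% and 29.4%) and in RPE cells 10 and 7 (9.79% and 24%). In mesenchymal cells Rpl38-ps1 was higher by 1.93 ± 0.19, Rpl37rt by 1.81 ± 0.19 and Gm3511 by 1.73 ± 0.18. With the UMIs of the copies added to their parents, 77 of 82 members were higher in mesenchymal cells and 1 lower. Gm2830, a copy of Rps24, was lower in glia by 2.06 ± 0.23, in interneurons by 0.53 ± 0.16 and in RPE cells by 2.29 ± 0.52.

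The balance of the subunits was compared too. Large-subunit UMIs per small-subunit UMI were 1.076, 1.09 and 1.01 in the mesenchymal cells of wt/wt replicates 1, 2 and 3 and 1.01, 1.04 and 0.835 in those of ko/ko replicates 1, 2 and 3. In every retina this was below the ratio in each of the other 4 types, whose means over retinas were 1.22 to 1.25 against 1.01 ± 0.0926 (SD, n = 6). The ratio counts only the UMIs left on the genes beside their copies, so it is no measure of subunit stoichiometry.

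Lists of genes around the ribosome were counted in the same fit. All 4 ribosomal genes with other names were higher in mesenchymal cells than in photoreceptors, among them Rpsa by 1.32, Fau by 1.45 and Rack1 by 1.17 on the log2 scale, and all 4 were lower in glia. Of 21 translation factors and companions with a 5′ TOP, 10 were higher and 1 lower in mesenchymal cells: Eef1d by 1.56 ± 0.26, Eef1a1, the elongation factor that delivers tRNA, by 1.53 ± 0.22 and Tpt1 by 1.37 ± 0.30, while the histone chaperone Nap1l1 was lower by 2.33 ± 0.37. Over all genes tested, 24.8% were higher and 25.5% lower in mesenchymal cells. Of 15 ribosome biogenesis genes none was higher and 3 were lower (edgeR, Nop58, Rrn3 and Ncl, by 1.80, 1.69 and 0.68). Of 68 mitochondrial ribosomal protein genes 2 were higher and 17 lower. In these 2 lists the shares that were lower lay near that of all genes, and the shares that were higher lay below it. In glia the last 3 lists had 2 higher and 9 lower, 0 and 5, and 5 and 22, where 26.8% and 29.4% of all genes were higher and lower. In interneurons they had 5 and 3, 1 and 7, and 3 and 13 (25.7% and 26.2% of all genes), and in RPE cells 1 and 8, 1 and 5, and 7 and 7 (9.79% and 24%).

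Between genotypes no ribosomal protein gene passed the test in any cell type, and none of all genes tested did. The fit compared the 3 ko/ko with the 3 wt/wt retinas in each type (edgeR, quasi-likelihood, Benjamini-Hochberg adjusted p under 0.05), where the titles number 3 retinas per genotype. The protocol text in the labels speaks of 1 sample per genotype, so the p-values measure the spread between these libraries, whose separate origin was taken from the titles. It tested 82 members of 13053 genes in photoreceptors, 80 of 7698 in interneurons, 66 of 4130 in glia, 63 of 1717 in mesenchymal cells and 15 of 308 in RPE cells, and called 0 members against a background of 0% in each. At an unadjusted p under 0.05 there were 0, 0, 1, 0 and 0 members. limma-voom and DESeq2 also called 0 members in each type, with 0, 1, 2, 0 and 0 members and with 0 members at an unadjusted p under 0.05. The 1394 pseudogenes gave 0 calls as well, with 6 of 588, 3 of 170, 1 of 62, 1 of 75 and 1 of 7 at an unadjusted p under 0.05. By contrast, the study's own limma-voom test of these samples called genes in interneurons, mesenchymal cells and RPE cells. Rps23 and Rpl15 were among those it called in interneurons.

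In photoreceptors 80 of 82 members had a positive fitted log2 difference of ko/ko from wt/wt retinas, with a median of 0.26, where 6305 of 13053 genes did and the median was -0.01. The count rests on 1 retina: without ko/ko replicate 1, 39 of 82 were positive. That retina had the highest ratio of pseudogene to ribosomal protein UMIs in each cell type, given below. Among the single genes, Rpl18 was nearest to a difference, at 37.2, 39.5 and 36.6 CPM in wt/wt and 76.7, 49.6 and 36.4 in ko/ko replicates 1, 2 and 3 (0.54 ± 0.26, edgeR adjusted p = 0.998), and the groups overlapped through ko/ko replicate 3. Rpl5, which with Rpl11 binds the regulator of p53, stood at 35.0, 29.8 and 43.3 against 53.2, 42.1 and 45.6 CPM (0.41 ± 0.20). The 2 members with negative differences were Rpl22l1 (-0.31 ± 0.61) and Rpl30 (-0.17 ± 0.41), both high in wt/wt replicate 3, and without that retina both differences turned positive.

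In interneurons 45 of 80 members had positive fitted differences, and in glia 39 of 66, in mesenchymal cells 19 of 63 and in RPE cells 8 of 15. These counts are given without the share of all genes and without single retinas left out. They are not read as a trait of the members. Rpl15 in interneurons stood at 42.7, 40.9 and 78.2 CPM in wt/wt and 65.1, 79.8 and 114 in ko/ko (0.67 ± 0.31), where batch 1 gave the highest value of each genotype. Rpl39 in glia stood at 87.8, 87.0 and 88.3 against 87.1, 34.4 and 35.5 CPM (-0.88 ± 0.40, edgeR adjusted p = 1), with ko/ko replicate 1 within the range of wt/wt. Rplp0 in mesenchymal cells stood at 270, 171 and 254 against 205, 149 and 77.0 CPM (-0.71 ± 0.39, adjusted p = 0.623), with overlap. Among the other members with the smallest p, differences lay between -0.53 and 0.60 for Rpl22, Rps15a and Rpl38 in interneurons, Rpl35, Rpl7l1 and Rpl36 in glia, Rps25 in mesenchymal cells, and Rps15, Rpl13a and Rps9 in RPE cells.

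Rps23, which sits at the decoding centre, and Rpl15 are looked at apart because the study calls both between genotypes in interneurons. Its limma-voom test of these same samples gave Rps23 as lower and Rpl15 as higher in ko/ko. They are therefore no independent evidence of a direction. Neither passed here in edgeR, limma-voom or DESeq2. Rps23 in photoreceptors stood at 35.0, 33.7 and 45.8 CPM in wt/wt and 69.8, 42.9 and 30.6 in ko/ko (0.33 ± 0.30). In interneurons it stood at 56.9, 64.9 and 61.1 against 85.5, 25.9 and 32.004 (-0.51 ± 0.41), where ko/ko replicate 1 lay above and the other ko/ko retinas below every wt/wt value. With the UMIs of its copies added, its difference in interneurons became 0.15. Rpl15 in photoreceptors differed by 0.07 ± 0.48. The study also gives Rps15-ps2 and Rpl28-ps3 as lower in ko/ko interneurons, and neither passed here. Rps15-ps2 in interneurons stood at 42.7, 33.7 and 44.8 against 32.6, 32.4 and 14.5 CPM (-0.78 ± 0.39, edgeR adjusted p = 1). Rpl28-ps3 stood there at 109, 113 and 124 against 122, 73.4 and 54.1 (-0.55 ± 0.31).

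The share of UMIs on the family differed between genotypes by less than the spread between retinas in photoreceptors, where the wt/wt mean was 1.34% ± 0.430 and the ko/ko mean 1.57% ± 0.235 (SD, n = 3), and within batch 1 it was lower in ko/ko by 0.258 percentage points. Within batch 2 it was higher in ko/ko by 0.487 percentage points, with 1.81% and 1.34% against 1.06% and 1.11%, without overlap. In interneurons it was 1.84% ± 0.184 and 1.90% ± 0.344, in glia 1.12% ± 0.292 and 1.23% ± 0.243, and in mesenchymal cells 3.63% ± 0.339 and 3.45% ± 0.739. In RPE cells it was 1.65% ± 0.0883 and 1.77% ± 0.0599, and the genotypes did not overlap: the highest wt/wt value was 1.71%, on 456 UMIs of these genes, and the lowest ko/ko value 1.72%, on 388. In a stricter set of cells with 500 UMIs or more and 10% mitochondrial UMIs or less, at 1.56% to 1.81% and 1.75% to 1.81%, the genotypes overlapped, as they did with mitochondrial and Malat1 UMIs left out, at 1.65% to 1.74% and 1.74% to 1.86%.

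The split of UMIs between genes and copies varied between retinas in nearly the same way in each cell type. In photoreceptors there were 120, 121 and 88.2 pseudogene UMIs per 100 ribosomal protein UMIs in wt/wt replicates 1, 2 and 3, and 136, 114 and 70.1 in ko/ko replicates 1, 2 and 3. In interneurons the ratio was 122, 125 and 90.1, and 137, 117 and 69.5. In glia it was 131, 134 and 97.9, and 144, 122 and 78.5. The retinas stood in the same order in photoreceptors, interneurons, glia and mesenchymal cells, from ko/ko replicate 1 through wt/wt replicates 2 and 1, ko/ko replicate 2 and wt/wt replicate 3 down to ko/ko replicate 3, and RPE cells exchanged only wt/wt replicate 3 and ko/ko replicate 2. The mean over the 5 types was 140 in ko/ko replicate 1 and 72.5 in ko/ko replicate 3, while the means of the types over retinas lay between 105 and 123. The 5 types of a retina come from 1 library, so their common order is 1 observation per retina.

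Both retinas of batch 1 had the lowest ratios in 4 of 5 types, 1 of each genotype. The ratio was 79.2 ± 12.8 in batch 1 (SD, n = 2) and 123 ± 9.53 in batch 2 (n = 4) in photoreceptors, 79.8 ± 14.6 and 125 ± 8.84 in interneurons, 88.2 ± 13.7 and 133 ± 9.09 in glia, and 82.7 ± 18.02 and 116 ± 8.16 in mesenchymal cells, without overlap. In RPE cells it was 98.7 ± 34.4 and 135 ± 14.4, with overlap. In photoreceptors neither quantity alone set the batches apart: ribosomal protein genes took 1.57% and 1.83% of UMIs in batch 1 and 1.06% to 1.81% in batch 2, and copies 1.10% and 1.62% against 1.27% to 2.47%. Their sum was 3.06% ± 0.545 against 2.99% ± 0.890, and all of these overlapped between batches. In interneurons the copies took 1.20% and 1.83% of UMIs in batch 1 and 1.96% to 3.15% in batch 2, and in RPE cells 1.31% and 1.90% against 2.06% to 2.84%, without overlap, while the share on the genes overlapped in both types. In glia and mesenchymal cells both shares overlapped. Mitochondrial UMIs in photoreceptors were 2.71% and 3.24% in batch 1 and 0.361% to 0.698% in batch 2. Malat1 took 8.80% and 10.96% of photoreceptor UMIs against 12.0% to 17.7%, and the median photoreceptor held 503.5 and 523 against 397 to 432 UMIs. The part of these in the ratio was not tested.

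**Figure D4:**
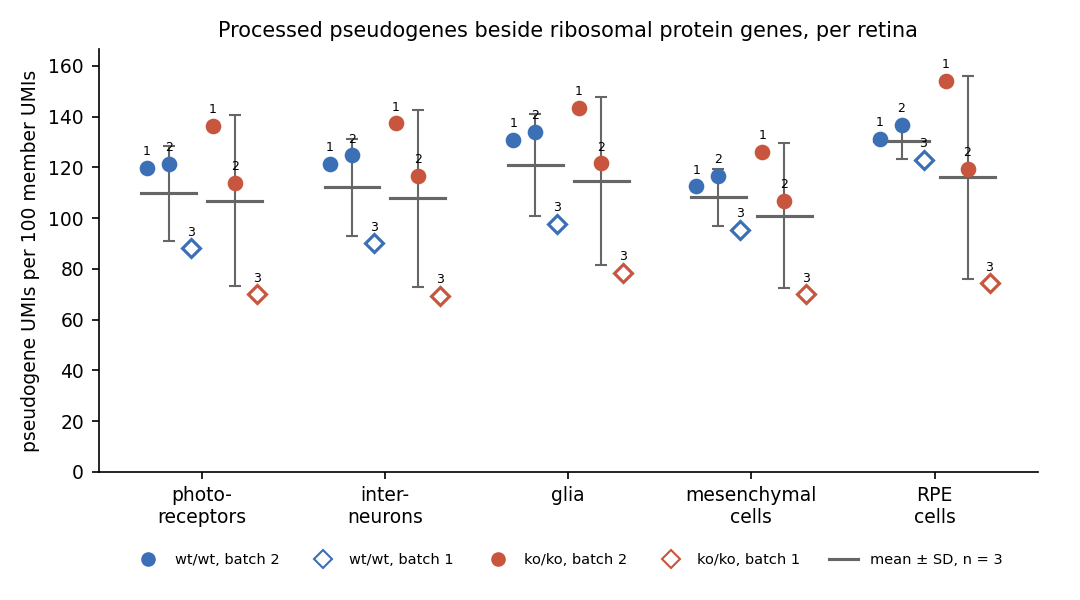
Processed pseudogene UMIs per 100 ribosomal protein UMIs are plotted on the y axis for each cell type, one symbol per retina (colour for genotype, open diamonds for batch 1, filled circles for batch 2), with grey bars for the mean and SD of each genotype (n = 3). The open diamonds lie lowest in every type but RPE cells, and ko/ko replicate 1, the highest filled circle, lies between 126 and 154 throughout.

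The batch difference in the ratio ran through most of the family. Of 79 genes with at least 20 UMIs of their own and 20 on copies in the photoreceptors of every retina, 66 had a lower mean ratio in batch 1, and for 45 both batch 1 retinas lay below all 4 of batch 2. For 6 genes both lay above. The same ratio was not computed for other genes and their processed pseudogenes, so these counts have no background. The median gene's ratio in batch 1 was 0.768 times that in batch 2. Rpl14 stood at 96.0, 98.8 and 34.5 copies' UMIs per 100 of its own in wt/wt replicates 1, 2 and 3 and 56.2, 96.7 and 26.4 in ko/ko. Rps14 stood at 79.4, 74.2 and 40.4, and 104, 71.8 and 35.4. Rps28, whose window differs from Gm3511 by a single letter, went the other way, at 746, 836 and 1769, and 642, 892 and 2209. Rpl41 also lay higher in batch 1, at 24.8 and 16.2 against 4.54 to 6.49.

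Gene by gene, batch 1 was compared with batch 2 in all 6 retinas (edgeR, quasi-likelihood, genotype as a term, Benjamini-Hochberg adjustment). In photoreceptors 12 of 82 members were higher in batch 1 and 0 lower, where 2.39% and 3.11% of 13749 genes were. With limma-voom 9 were higher and with DESeq2 16, with 0 lower in both, and 22 passed an unadjusted p under 0.05 in edgeR. Without the filter on low counts 26 members were called, and 5 were with the UMIs of the copies added to their parents. Among the 12 were Rpl15, Rpl22l1, Rplp1, Rps14, Rps15, Rpl8, Rps3, Rpl22, Rpl4, Rps9 and Rps21. The 12 held 4 of the 5 members with the most UMIs. The count moved with the library left out: it was 0 without wt/wt replicate 1 or 2, 2 without ko/ko replicate 2, and 35 without ko/ko replicate 1. Leaving out wt/wt replicate 3 or ko/ko replicate 3 leaves batch 1 with 1 retina, which is then assumed to vary like the others.

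Rpl22l1, a paralog of Rpl22 that can replace it in the ribosome, showed the largest rise, at 42.4, 31.3 and 152 CPM in wt/wt replicates 1, 2 and 3 and 50.1, 34.0 and 93.9 in ko/ko (1.65 ± 0.24, adjusted p = 0.0148). Rpl15 stood at 12.95, 15.2 and 36.9, and 16.6, 14.8 and 35.1 CPM (1.30 ± 0.17, adjusted p = 0.012). Rplp1 stood at 391, 410 and 1103, and 686, 547 and 1038 CPM (1.15 ± 0.18, adjusted p = 0.0194). In these 3 genes both retinas of batch 1 lay above all 4 of batch 2. With single retinas left out, the difference ranged from 1.22 to 2.06 for Rpl22l1, 1.22 to 1.39 for Rpl15 and 0.81 to 1.47 for Rplp1. The members with the smallest p in the other direction, Rps27 (-0.95 ± 0.35), Rpl36al (-0.80 ± 0.31) and Rpl7l1 (-0.37 ± 0.15), did not pass, with adjusted p of 0.144, 0.160 and 0.165 (edgeR).

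In interneurons 3 of 81 members were higher in batch 1 and 8 lower (4.8% and 7.65% of all genes). Rpl22l1 was higher by 1.53 ± 0.29, Rpl15 by 0.71 ± 0.22 and Rplp1 by 0.63 ± 0.17. With single retinas left out these ranged from 0.70 to 2.32, 0.59 to 0.92 and 0.46 to 0.86. Rps27, at 237 and 243 CPM in wt/wt and 273 and 179 in ko/ko retinas of batch 2 and 136 and 73.2 in batch 1, was lower by 1.21 ± 0.22 (edgeR adjusted p = 0.00126). Rps18 was lower by 0.93 ± 0.23 and Rpl23a by 1.01 ± 0.27, and the other lower genes were Rpl6, Rpl35, Rpl26, Rpl3 and Rpl37. With single retinas left out, Rps27 ranged from -1.63 to -0.80, Rps18 from -1.36 to -0.50 and Rpl23a from -1.35 to -0.67. In glia 4 of 68 were higher (Rpl22l1, Rps14, Rps15 and Rplp1) and 2 lower (Rps27 and Rpl41), with a background of 1.44% and 4.09%. In mesenchymal cells 0 of 64 were higher and 1, Rps10, was lower by 1.64 ± 0.42, against 1.38% and 1.99%, and 13 passed an unadjusted p under 0.05 while limma-voom and DESeq2 called 0. In RPE cells 0 of 18 were higher and 1, Rpl41, was lower by 1.24 ± 0.34, against 3.43% in each direction, and this was the 1 member at an unadjusted p under 0.05. DESeq2 called 0 members in glia, mesenchymal and RPE cells. Without single retinas the members called were 2 to 24 in interneurons (2 without wt/wt replicate 1 or ko/ko replicate 3, 5 without wt/wt replicate 2, 6 without ko/ko replicate 2 and 24 without ko/ko replicate 1) and 0 to 14 in glia (0 without wt/wt replicate 1, 2 without ko/ko replicate 2, 3 without wt/wt replicate 2 or 3 or ko/ko replicate 3, 14 without ko/ko replicate 1). In mesenchymal cells the call was lost without wt/wt replicate 1 or 2 or ko/ko replicate 1 or 3, with 6 lower without wt/wt replicate 3, and in RPE cells it was lost without ko/ko replicate 3.

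Nearly all copies that passed the test between batches were lower in batch 1. In photoreceptors 3 of 683 pseudogenes were higher in batch 1 and 36 lower, in interneurons 2 of 205 higher and 91 lower, in glia 0 of 82 and 13, in mesenchymal cells 0 of 91 and 14, and in RPE cells 0 of 12 in either direction, against the same backgrounds. Their median log2 differences were -0.33, -0.91, -0.75, -0.93 and -0.60, where those of the members were 0.00, -0.25, -0.09, -0.38 and 0.22. At an unadjusted p under 0.05 edgeR gave 41 pseudogenes in glia, 40 in mesenchymal cells and 3 in RPE cells, in either direction. Processed pseudogenes of other genes also took less of the UMIs in batch 1: 2.09% ± 0.371 against 2.94% ± 0.505 in interneurons, 1.90% ± 0.256 against 2.46% ± 0.277 in mesenchymal cells and 2.41% ± 0.0869 against 3.58% ± 0.406 in RPE cells (SD, n = 2 and 4), without overlap. In photoreceptors, at 1.79% ± 0.365 against 2.20% ± 0.421, and in glia, at 1.68% ± 0.343 against 2.00% ± 0.391, the batches overlapped. Whether the copies of ribosomal protein genes fell more than other processed pseudogenes was not tested. Rpl14-ps1 was lower by 1.16 ± 0.18 in interneurons, 1.24 ± 0.24 in glia and 1.70 ± 0.34 in mesenchymal cells. In interneurons it stood at 669, 613, 399 and 583 CPM in batch 2 and at 303 and 224 in batch 1. Gm5805, Gm2830 and Gm14303, copies of Rps14, Rps24 and Rps29, were also lower in interneurons, by 0.92, 0.95 and 1.14, and Gm14303 in glia by 1.55. Gm3511 was among the 3 higher in photoreceptors, by 0.89 ± 0.18 (adjusted p = 0.0368). In photoreceptors no copy was called without any 1 of the wt/wt retinas (edgeR), 18 were without ko/ko replicate 2, 7 without ko/ko replicate 3, all higher, and 137 without ko/ko replicate 1. In interneurons 25 to 86 were lower and 0 to 7 higher whichever retina was left out, with 30 called without ko/ko replicate 3 and 48 without wt/wt replicate 1. In glia 1 was called without wt/wt replicate 1, 3 without ko/ko replicate 2, 5 without wt/wt replicate 3 or ko/ko replicate 3 and 23 without ko/ko replicate 1. In mesenchymal cells 2 or 3 were called without wt/wt replicate 1 or 2 or ko/ko replicate 1 or 3, 6 without ko/ko replicate 2 and 22 without wt/wt replicate 3.

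**Figure D5:**
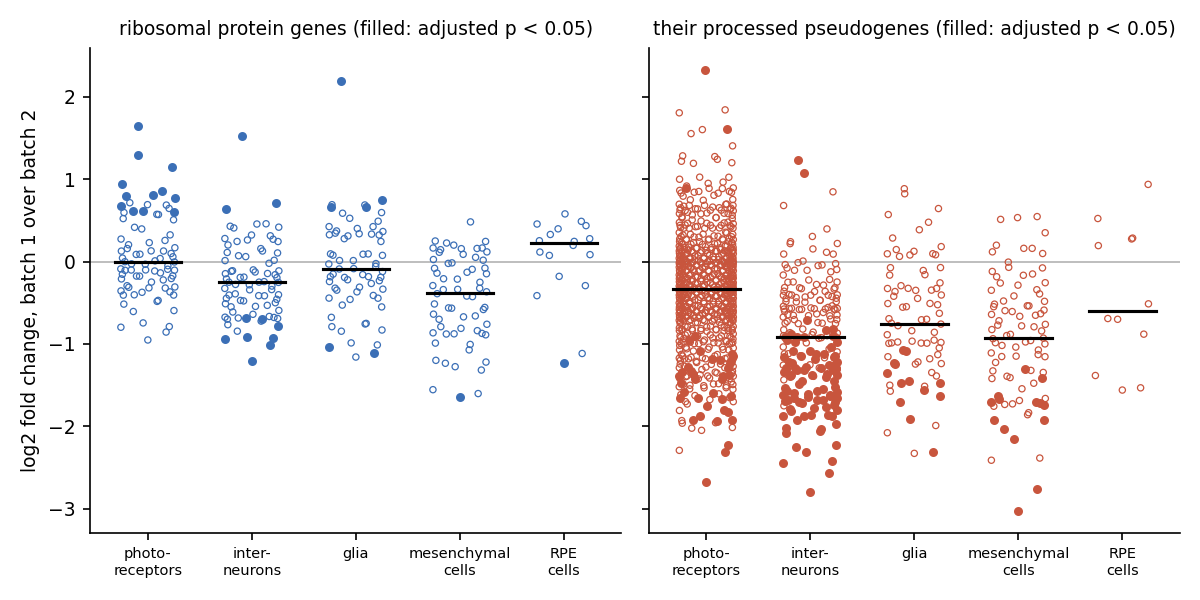
The y axis gives the log2 fold change of batch 1 over batch 2 in each cell type, for ribosomal protein genes in one panel and for their processed pseudogenes in the other, one point per gene (filled where the adjusted p is under 0.05), with a black line at each median. In interneurons the line lies at -0.25 for the genes and at -0.91 for the pseudogenes.

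Subunit balance moved with the batch as well. Large-subunit UMIs per small-subunit UMI were 1.15 ± 0.0491 in batch 1 and 1.27 ± 0.0205 in batch 2 in photoreceptors, 1.11 ± 0.0923 and 1.29 ± 0.0399 in glia, and 0.921 ± 0.122 and 1.06 ± 0.0352 in mesenchymal cells (SD, n = 2 and 4), without overlap. In interneurons and RPE cells the batches overlapped, as they did in mesenchymal cells of the stricter set, with 1.01 in both wt/wt replicate 3 of batch 1 and ko/ko replicate 1 of batch 2. Of the lists beyond the family, 1 of 4 ribosomal genes with other names was higher in photoreceptors of batch 1 (Rack1, by 0.92 ± 0.17), as were 3 of 22 translation factors and companions (Eif3e, Eef2 and Eif3h, by 0.66 to 1.12), while Pabpc1, the poly(A) binding protein, was lower by 1.90 ± 0.16. Of 24 biogenesis genes 0 were higher and 1, Nop56, was lower by 1.68 ± 0.16, and of 78 mitochondrial ribosomal protein genes 0 were higher and 1, Mrpl9, lower, where 2.39% of all genes were higher and 3.11% lower. Pabpc1 was lower by 1.88 ± 0.19 in interneurons and by 1.99 ± 0.27 in glia too.

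The duplicated genes of the family were counted side by side, with the limit that their copies take different numbers of UMIs. Rpl22 stood at 274 ± 93.4 CPM in wt/wt photoreceptors, 167 ± 35.1 in interneurons, 166 ± 42.6 in glia, 492 ± 83.9 in mesenchymal cells and 137 ± 76.6 in RPE cells (SD, n = 3), and Rpl22l1 at 75.3 ± 66.9, 108 ± 106, 47.6 ± 60.4, 89.2 ± 104 and 127 ± 61.1. The SD of Rpl22l1 was near or above its mean in the first 4 types, with wt/wt replicate 3, of batch 1, as the high value in each. Rps27 stood at 140 ± 18.7, Rps27l at 99.0 ± 2.63 and Rps27rt at 74.1 ± 9.50 CPM in photoreceptors. In glia Rps27l, at 170 ± 37.9, was level with Rps27, at 163 ± 22.4, while in mesenchymal cells Rps27 stood at 582 ± 88.1 and Rps27l at 207 ± 29.2. Rpl36a and Rpl36al stood at 43.9 ± 16.8 and 79.9 ± 6.24 CPM in photoreceptors and at 162 ± 13.7 and 172 ± 68.4 in mesenchymal cells. Rpl7 stood at 87.0 ± 16.03 and its paralog Rpl7l1, which acts in ribosome assembly, at 56.7 ± 9.10 in photoreceptors.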

How the data were processed

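UMI counts from 6 retinas were used. The authors aligned 10x Genomics 3′ v2 reads to the genome build GRCm38 with Cell Ranger 3.1.0 and deposited raw counts of exonic, uniquely mapped reads per gene and cell, not normalized, with a table of retina, genotype, batch and cell type. They found the cell types in Seurat (LogNormalize, CCA integration over the batch, Louvain clusters). Of 46375 cells, 45746 have a type. Depth was 3463728 to 6563762 UMIs per retina; the limit that 0 UMIs allow was set at 3 UMIs of the sum, which covers counting error alone. Of the columns of cells, 0 were left unused. No doublet caller was run and no cell was removed except in the stricter alternative.

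GENCODE M21 gave symbols and biotypes to 52489 of 52636 identifiers. Each annotated processed pseudogene with UMIs (6139 of 8905) was aligned to the transcripts of all protein-coding genes with blastn 2.17.0 and assigned to a member where its best match was one (at least 80% identity, 50% of its length); of 255 named for a member and counted, 236 were assigned to that member. Within each retina the UMIs of a cell type were added up and fitted over all genes with edgeR 4.0.16 (glmQLFit, glmQLFTest, TMM, filterByExpr) in R 4.3.3, with Benjamini-Hochberg adjustment at 0.05. CPM are UMIs scaled to the total of their sum, without TMM factors. A fold change is on the log2 scale of the fit. The edgeR test gives no SE, so the SE shown was derived from it. It is the size of the log2 fold change divided by the square root of the quasi-likelihood F statistic. The scripts were tested on simulated data. The members and lists were chosen with earlier results of these data known.

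Comparisons were ko/ko against wt/wt in each type (no covariate), batch 1 against batch 2 (genotype as a term), and the types in wt/wt retinas (retina as a block). Shares, ratios and lists got no p. Alternatives were limma-voom (limma 3.58.1), which the study's methods use, DESeq2 1.42.0, RLE factors, no filter, a stricter set of 20049 cells (500 UMIs or more, 10% mitochondrial UMIs or less), pseudogene UMIs added to members or assigned by name, the batch as a covariate, the replicate number as a block (every same-numbered pair correlated above 0.1 in interneurons, 0.105 to 0.577, but not in photoreceptors, glia, mesenchymal or RPE cells), each batch alone, the ko/ko retinas, a fold change above 2 and each retina left out; those for the pseudogene calls, the batch difference of the ratio and the subunit ratio were added after seeing the data.

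Genes named are the 2 members with the smallest p in each direction between genotypes per type, those the study lists (Rps23, Rpl15, Rps15-ps2, Rpl28-ps3), the 3 called with the largest change in each direction against photoreceptors, between batches those of the 3 smallest p per direction in photoreceptors and interneurons, the stalk genes, the paralogs, the 5 with the most and the 5 with the fewest UMIs, and the 10 with the most pseudogene UMIs with their leading copy. Rps9 and Rps4x in mesenchymal cells, and other genes called in small counts, were named after their values were seen. A few genes the rule selects are not reported here. Sequences came from the GRCm38 genome and the RefSeq promoter table, which holds 65 of the members.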

Additional observations from a re-analysis of the deposited data

Results flagged for a closer look

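The large-subunit to small-subunit UMI ratio of glia was 1.23 in ko/ko replicate 2 and 1.30 to 1.31 in the other 3 retinas of batch 2, a gap of 0.833 of the whole range and just past the limit of Dixon's test at the 95% level. It was 1 of 15 groups of 4 retinas looked at, and chance alone sets off this limit in about 1 group in 20.

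Rps24, a small-subunit gene, differed between batches in opposite directions by cell type, which was not tested. In photoreceptors every batch 1 retina lay above every batch 2 retina (461 against 298 CPM on average), and in glia likewise (320.0 against 224). In mesenchymal cells every batch 1 retina lay below every batch 2 retina (543 against 751 CPM).

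The cells without a type, left out of the comparisons, gave 1.83% of their 379054 UMIs to ribosomal protein genes, with 1.14% to 2.19% over the 6 retinas. Their pseudogene UMIs per 100 ribosomal protein UMIs were 119, 114 and 89.6 in wt/wt replicates 1, 2 and 3 and 132, 111 and 69.8 in ko/ko replicates 1, 2 and 3, with the batch 1 retinas lowest.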

How the results depend on the processing

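Between genotypes 0 members were called in every type under every alternative run, the replicate number as a block included, which also gave 0 in each type. Replicate 3 of both genotypes shares batch 1, while numbers 1 and 2 mark nothing that the labels name. The correlation of the deviations of same-numbered retinas was -0.07, 0.54 and 0.52 in photoreceptors and 0.105, 0.34 and 0.58 in interneurons, and in both types wt/wt replicate 1 correlated best with ko/ko replicate 2. Among pseudogenes 1 was called in mesenchymal cells without the filter.

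Members called between batches in photoreceptors (12 as reported) numbered 26 without the filter and 5 with pseudogene UMIs added. In interneurons (11) they numbered 17 with limma-voom, 4 with DESeq2 and 21 with pseudogene UMIs added. In glia (6) DESeq2 gave 0, in mesenchymal cells (1) limma-voom, DESeq2, added pseudogene UMIs and batch as the only term gave 0, and in RPE cells (1) DESeq2, no filter and added pseudogene UMIs gave 0. Pseudogenes numbered 65 with DESeq2 and 130 without the filter in photoreceptors (39), 57 with DESeq2 in interneurons (93), 4 with DESeq2 and 20 without the filter in glia (13), and 4 with limma-voom, 2 with DESeq2, 6 without the filter and 4 with batch alone in mesenchymal cells (14). Leaving out each retina gave 0 to 35, 2 to 24, 0 to 14, 0 to 6 and 0 to 1 members in the 5 types in the order of the report, and 0 to 137, 30 to 93, 1 to 23 and 2 to 22 pseudogenes in the first 4. RLE factors called 459 genes higher and 406 lower in photoreceptors of batch 1, where TMM called 328 and 427.

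Against photoreceptors, 20 members called in interneurons became 11 without the filter, 13 in ko/ko retinas and 2 at a fold change above 2, 25 in glia became 39 with stricter cells, 38 in ko/ko retinas and 5 above that fold, 66 in mesenchymal cells became 39 without the filter, and 12 in RPE cells became 19 with pseudogene UMIs added and 7 above that fold. Leaving out a retina gave 8 to 31, 15 to 22, 41 to 66 and 7 to 8. RLE factors moved the all-gene median of mesenchymal cells from -0.21 to -0.08 and that of RPE cells from -1.17 to -1.02, with 70 members higher and 1 lower, and 4 and 6.

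Of the genotype differences of single genes, Rpl30 in photoreceptors turned to 0.15 with pseudogene UMIs added (-0.42 to 0.48 without single retinas), Rpl15 to -0.042 with stricter cells (-0.47 to 0.71), Rps23 in interneurons to 0.15 and Rpl35 in glia to -0.090 with pseudogene UMIs added (-0.078 to 0.99), and without single retinas Rpl22l1 ranged from -0.84 to 0.74 and Rps23 in photoreceptors from -0.013 to 0.57. Of 692 alternatives for 55 named differences, 610 kept direction and side of the threshold, 66 lost the call, 5 gained it and 11 turned sign. The 610 include differences that were not called and stayed so, among them those between genotypes. They are therefore no measure of how firmly the calls hold.

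Within batch 1 the ribosomal protein share in ko/ko minus wt/wt was -0.258, -0.315, -0.191, -1.05 and 0.211 percentage points in the 5 types (0.239, 0.0583, 0.110, -0.183 and 0.127 over all retinas; 0.487, 0.245, 0.260, 0.253 and 0.0845 within batch 2), and 0.0444 in RPE cells with pseudogene UMIs added. The subunit ratio differed by -0.128 in interneurons and 0.134 in RPE cells within batch 1. Pseudogenes taken by name gave 30.03, 29.99, 33.1, 27.9 and 35.1 UMIs per 100, and batch differences of -12.9, -13.1, -13.2, -9.59 and -8.02 (-43.8, -45.3, -44.3, -32.9 and -36.8 by sequence). By sequence, with single retinas left out, the difference ranged from -55.7 to -35.0 for interneurons, from -54.0 to -34.7 for glia, from -45.6 to -20.1 for mesenchymal cells and from -61.2 to -12.5 for RPE cells. The cause of these shifts was not tested. With 2 retinas in batch 1, 116 RPE cells and 246 mesenchymal cells, small differences could not be detected.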
